A study of Mus musculus with 75 samples.

Results

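Late-G1 chromatin in mouse G1E-ER4 cells was partitioned into contact domains that often lay inside one another, and the domains deepest in these stacks are described here. A deeply nested domain is a late-G1 domain that lay wholly inside at least 2 other late-G1 domains, with shared edges allowed. The late-G1 list held 10899 domains, of which 4127 met the rule, 3000 lay in exactly 1 other domain and 3772 lay in no other. The members were chosen by the start and end positions in the late-G1 domain list, so nesting level and size are given as a description without a test.

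G1E-ER4 is a subline of G1E, a GATA1-null mouse proerythroblast line of strain 129, and it was used here without induction. Cells were arrested with nocodazole at 200 ng/ml for 7 to 8.5 h, released, and sorted by fluorescence. The 5 stages were pro-metaphase (0 min of release), ana/telophase (25 min), early G1 (60 min), mid G1 (120 min) and late G1 (240 min). In situ Hi-C, which maps contacts between pairs of loci, had 2 samples per stage. ChIP-seq for CTCF had 3 samples in pro-metaphase and 2 at each other stage, and ChIP-seq for Rad21 had 2 at each stage. The samples come from 1 cell line, with no other genotype in these comparisons, and the 5 stages share 1 arrest protocol. CTCF and Rad21 peaks of asynchronous cells, with 2 samples each and no arrest or release given, serve only as an alternative setting below.

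Contact domains are stretches of a chromosome whose loci meet each other more often than they meet their neighbours. Cohesin, a ring complex of which Rad21 is a subunit, is thought to reel in DNA until it meets CTCF, a zinc-finger protein bound to DNA. This process can leave a domain with CTCF and cohesin at its edges and a focal contact, a corner loop, between them. Small domains may lie within larger ones, and condensed mitotic chromosomes largely lack domains and loops until they are rebuilt during exit from mitosis.

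The deposited lists hold 1 set of domains, loops and peaks per stage from pooled replicates, so no test across replicates can be made and no p-value is given. Percentages carry exact Clopper-Pearson 95% intervals, which cover counting error only. Members that share an edge or an enclosing domain are not independent, so these intervals understate the true uncertainty. Sequencing depth is unknown, and the lists grew from 2509 domains in pro-metaphase through 5531, 9210 and 10286 to 10899 in late G1. Loops grew from 84 to 11340 over the same stages. A stage with more calls offers more matches to any domain, so the shares below are read against the same share of all 10899 late-G1 domains. All positions are 1-based and in build mm9.

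Deeply nested domains were small and lay in a minority of the late-G1 domains that no other domain contained. Their median size was 320 kb, with quartiles of 220 and 470 kb and a range of 160 to 2310 kb. Domains in exactly 1 other had a median of 380 kb, those in no other 480 kb, and all late-G1 domains 370 kb. A total of 204 members (4.94%) had the smallest size in the list, 160 kb, against 4.22% of the domains in no other. At the other end, 127 members were longer than 1000 kb. The members covered 886 Mb of the 2063 Mb covered by any late-G1 domain, or 43.0%.

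Of the members, 1998 sat just inside the threshold and lay in 2 other domains, 1158 in 3, 564 in 4, 267 in 5 and 98 in 6. The remaining levels held 29 domains in 7 others, 7 in 8, 3 in 9 and 3 in 10. Median size fell from 350 kb in 2 others to 310 kb in 3, 290 kb in 5 and 260 kb in 7. Just outside the threshold, the domains in 1 other had a median of 380 kb, and 53.8% of them had been called by early G1, against 50.6% of the domains in 2 others. A contained domain can be no longer than its container, so part of this ordering is set by the rule itself.

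**Figure D1:**
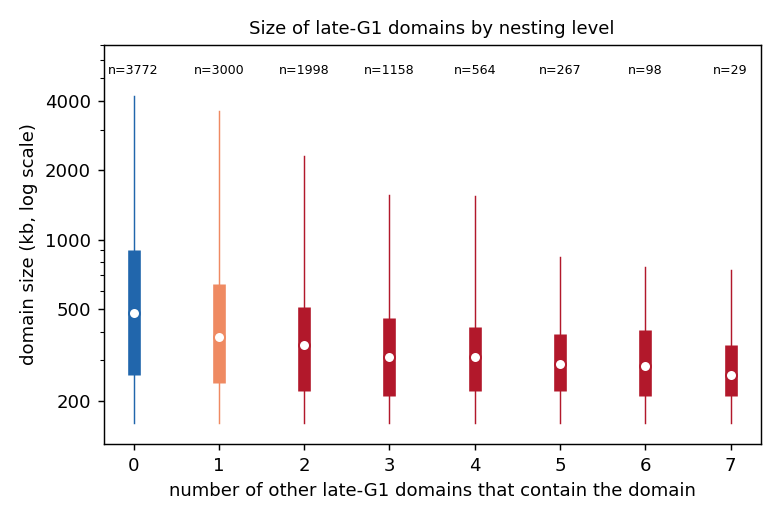
Size of late-G1 domains (kb, log axis) by the number of other late-G1 domains that contain them; circles are medians, thick bars quartiles and thin lines the full range, with the number of domains above. Median size fell from 480 kb at level 0 to 260 kb at level 7; levels 8 to 10, with 13 domains in all, are not drawn.

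The members were concentrated in 1187 outermost domains, which are the largest enclosing domain of each member and lie in no other domain. These were 31.5% of the 3772 domains that lay in no other, and their median size was 1040 kb. Each held a median of 2 members. In 387 of them (32.6%) there was a single member, while 61 held at least 10 and together accounted for 768 members (18.6%). The median member was 66.7% as long as its smallest enclosing domain and 25.0% as long as its largest.

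The stacks were often anchored on a common edge, and they were not always a simple series of shells. Of the members, 1892 (45.8%) shared an exact edge with their smallest enclosing domain. For 644 members the smallest enclosing domain lay within 20 kb at both edges, so that the pair are near-copies of one call. In 2680 members (64.9%) every enclosing domain was nested in the next, and in the others at least 2 enclosing domains crossed each other. A further domain lay inside some members, but 2645 (64.1%) contained none.

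The largest stack shows the arrangement. The late-G1 domain at chr3:99920001-102790000 spanned 2870 kb and contained 27 other domains, 23 of them deeply nested, with sizes from 160 to 1080 kb and up to 5 enclosing domains. No domain was called within this span in pro-metaphase, and the next 4 stages gave 12, 19, 24 and 29, counting domains that reach up to 20 kb past its ends. The outer domain was first called in early G1. Of its 23 members, ana/telophase gave the first call of 5, early G1 that of 6 and mid G1 that of 4, and 8 were called in late G1 alone. Thus 5 members preceded the outer domain, 6 shared its stage and 12 followed it.

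**Figure D2:**
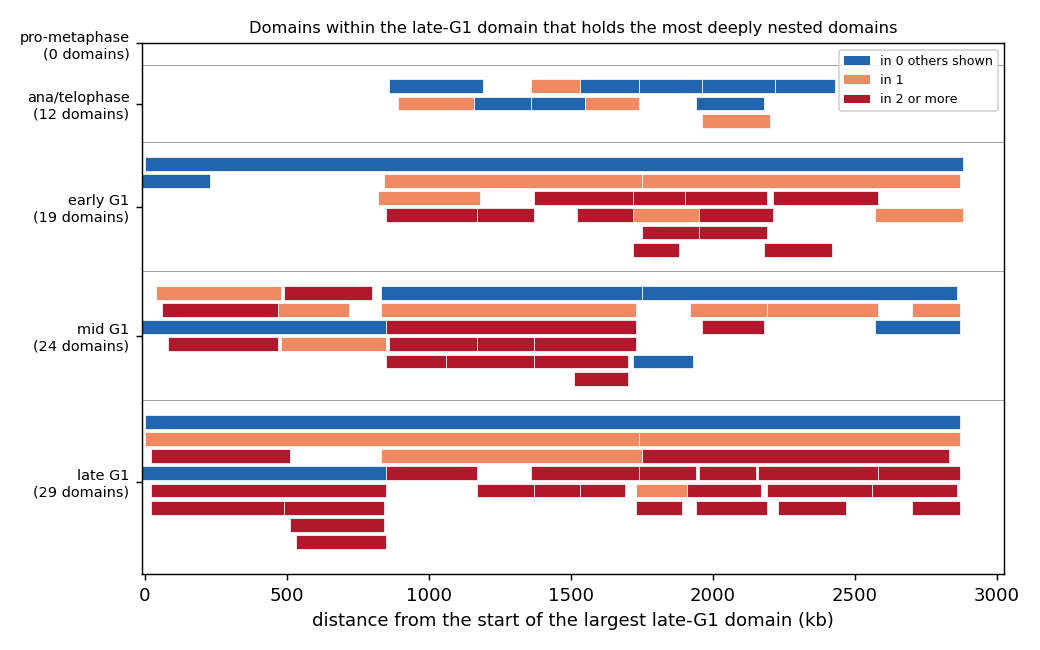
Domains called at each stage within the late-G1 domain that holds the most deeply nested domains, drawn as bars by distance in kb from its start; colours give the number of other domains of that stage drawn here that contain each. Ana/telophase held 12 domains, none of them in 2 or more others, and late G1 held 29, most of them in 2 or more.

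A second stack had the reverse order. The domain at chr6:31610001-34230000 (2620 kb) held 22 members at levels of up to 8, and was itself called in late G1 alone. Of its members, ana/telophase gave the first call of 4, early G1 that of 7 and mid G1 that of 7, so 18 of 22 preceded it and the other 4 shared its stage. The third, chr7:109630001-112440000 (2810 kb), held 20 members and reached level 10. It was first called in early G1, 8 of its members were called earlier, 3 at the same stage and 9 later. A corner loop in late G1 was called at 5, 1 and 7 members of these stacks respectively.

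The question of when a deeply nested domain first appeared was answered by matching both of its edges, within 20 kb, to the edges of a single domain at each earlier stage. By this measure 5.35% of the members had been called by pro-metaphase, 21.8% by ana/telophase, 50.3% by early G1 and 67.8% by mid G1. The same shares of all late-G1 domains were 5.53%, 22.4%, 51.4% and 68.2%, close to the members at every stage. The earlier lists come from other libraries than the rule used. In late G1 alone, 1327 members were called (32.2%, interval 30.7 to 33.6%), against 31.8% of all domains. At all 5 stages, 110 members were called (2.67%), against 2.98% of all. A further 496 (12.0%; all domains 10.9%) had been called at an earlier stage but had no match in mid G1, so a first call did not always begin an unbroken run.

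Size moved with these shares more than nesting did. Among members of 150 to 240 kb, 41.5% had been called by early G1, and the share was 58.3% in the bin of 250 to 390 kb and 51.4% from 400 kb up. Domains in 1 other gave 45.2%, 63.4% and 53.5% in the same bins, and domains in no other 43.9%, 63.5% and 49.0%. Within the smallest bin, 580 members (43.1%) were called in late G1 alone, against 26.5% and 27.2% in the larger bins. The members' values were therefore within 6 percentage points of both other classes in each bin, while they differed by more between bins. With the edge tolerance narrowed to 10 kb the early-G1 share was 36.4% for members, 41.8% for domains in 1 other and 39.0% for those in none.

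**Figure D3:**
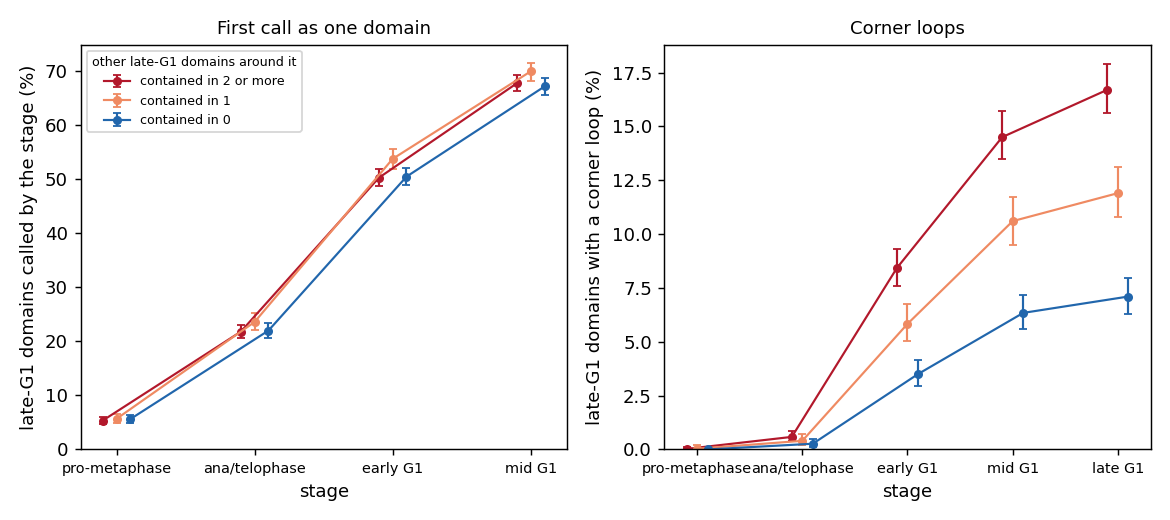
Left, percentage of late-G1 domains called as one domain by each earlier stage; right, percentage with a loop of each stage at their corner. Points are 1 pooled list per stage with exact 95% intervals for counting error; the 3 nesting classes run together on the left (50.3, 53.8 and 50.5% by early G1) and separate on the right (16.7, 11.9 and 7.10% in late G1).

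The earlier the stage, the more often a member's matching domain lay outside any other domain of that stage. Of the 221 members matched in pro-metaphase, 158 (71.5%) matched a domain that lay in no other pro-metaphase domain, and 19 (8.60%) one that lay in 2 or more. In ana/telophase 49.2% of 835 matched domains lay in no other and 22.5% in 2 or more. In early G1 it was 18.0% in none and 54.3% in 2 or more, and in mid G1 the shares were 10.3% and 66.9%. Nesting also grew in the lists as a whole: 5.74% of all pro-metaphase domains lay in 2 or more others, and the next 3 lists gave 15.2%, 29.6% and 36.1%.

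Where both edges of a member already lay at boundaries of an earlier stage, one domain usually joined them. Both edges lay within 20 kb of some ana/telophase boundary in 1124 members (27.2%), and in 835 of these (74.3%) a single ana/telophase domain joined them. The corresponding shares were 7.24% with both edges and 73.9% joined in pro-metaphase, 55.9% and 80.3% in early G1, and 65.0% and 85.9% in mid G1. Of all late-G1 domains, 8.78%, 30.8%, 59.9% and 68.2% had both edges near a boundary at these 4 stages, a little above the members each time. A single domain joined these edges in 63.0%, 67.4%, 77.8% and 84.0% of them, below the members each time, without matching for size.

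A member could precede, share or follow the first call of the domains around it, and all these orders were common. Against the smallest enclosing domain, 1235 members (29.9%) were called earlier, 1707 (41.4%) at the same stage and 1185 (28.7%) later. Among all 7127 late-G1 domains inside at least 1 other, the shares were 32.6% earlier, 40.0% at the same stage and 27.4% later. Against the largest enclosing domain, 40.4% of the members were earlier, 28.4% at the same stage and 31.2% later, and the 7127 gave 38.7%, 32.5% and 28.9%. Over all members, earlier calls thus exceeded later ones against the largest enclosing domain (1668 and 1288 members), while the 2 were nearly equal against the smallest. Size changed this. Against the largest, 36.4% were earlier and 35.2% later at 150 to 240 kb, 46.1% and 26.9% at 250 to 390 kb, and 39.2% and 31.3% from 400 kb up. Against the smallest, the same bins gave 29.7% and 32.1%, 34.8% and 26.0%, and 25.9% and 28.0%. With edge tolerances of 10 and 40 kb, the largest gave 35.1% and 31.9%, and 45.0% and 27.1%.

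Over the whole stack, 826 members (20.0%) were called before every enclosing domain and 580 (14.1%) after every one. The member and all its enclosing domains shared a stage in 467 cases (11.3%). With the enclosing domains ordered by size, 1836 members (44.5%) had a mixed order that neither rose nor fell from the inside outward. Depth changed this little: the share called before the largest enclosing domain was 40.4% in 2 others, 40.2% in 3 and 40.7% in 4 or more.

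Same-stage calls were partly the same call. Of the 1109 pairs that shared a first stage before late G1, 407 (36.7%) were dated by one and the same earlier domain, which lay within 20 kb of both. When each earlier domain was assigned only to its best-fitting late-G1 domain, the share of members earlier than their smallest enclosing domain was 35.0%. Another 598 pairs were both called in late G1 alone.

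First calls of a member and of its smallest enclosing domain moved together, but many of these pairs shared an edge. A member had been called by early G1 in 69.4% of 121 cases when its smallest enclosing domain was first called in pro-metaphase. The share was 70.5% for an enclosing domain first called in ana/telophase, 61.5% for early G1, 37.5% for mid G1 and 35.0% for late G1. These shares include the pairs dated by one and the same earlier domain. They also include the 1892 members (45.8%) that shared an exact edge with their smallest enclosing domain. A match needs both edges, so a shared edge that is missing at a stage leaves both domains unmatched there. The part of shared edges in these shares was not tested, and the shares were not computed for other nested domains. They therefore do not show a link in timing beyond shared edges.

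**Figure D4:**
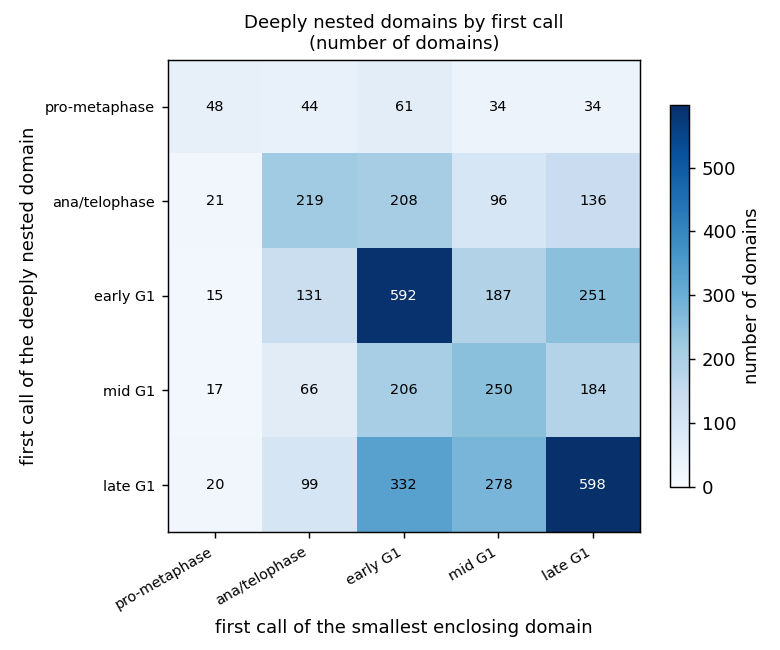
Number of deeply nested domains by the stage of their own first call (rows) and that of their smallest enclosing domain (columns). The diagonal, from 48 in pro-metaphase to 598 in late G1, holds 1707 of 4127 members; cells above it are members called before their smallest enclosing domain and cells below it members called after.

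Single regions show both extremes. Of the 14 members called at all 5 stages whose smallest enclosing domain was called in late G1 alone, the longest was chr9:40560001-41040000 (480 kb). Both domains around it, 620 and 670 kb long, were called in late G1 alone and end at its own end. Its start carried a CTCF peak from ana/telophase on, with a fold enrichment of 39.8 in ana/telophase and 34.1 in late G1, and its first Rad21 peak there in mid G1. It had no corner loop at any stage. The next, chr9:64150001-64560000 (410 kb), had late-G1 CTCF at its start alone (9.21-fold) and no Rad21 peak. After it by size, chr10:120420001-120770000 (350 kb) lay in late-G1 domains of 1120 and 1540 kb. It had CTCF at its end alone at every stage (57.0-fold in pro-metaphase, 42.4-fold in late G1) and no Rad21 peak. Both chr9:79590001-79930000 (340 kb) and chr2:75150001-75430000 (280 kb) had both proteins at both edges in late G1. The chr2 member had a corner loop in early and mid G1 (ratios 4.90 and 5.36) but none in late G1. Fold enrichments are the authors' values for each peak, and no change in fold is read from one stage to another.

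The opposite order was met 119 times: the member was called in late G1 alone and its smallest enclosing domain by ana/telophase. The longest was chr7:67330001-69580000 (2250 kb), inside domains of 2600 and 2950 kb. The second, chr9:101250001-102480000 (1230 kb), lay in a domain of 1370 kb that was called at all 5 stages. The third, chr16:14590001-15550000 (960 kb), shared its end with domains of 990 and 1040 kb that dated from ana/telophase. All 3 of these members had late-G1 CTCF at their end alone and no Rad21 peak at either edge. The next by size differed. At chr17:90060001-90940000 (880 kb), late-G1 CTCF (8.34-fold) and Rad21 (4.42-fold) lay at the start alone. At chr4:124890001-125700000 (810 kb), neither protein had a late-G1 peak at either edge.

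The largest member of all, chr9:80140001-82450000 (2310 kb), was called in late G1 alone. It lay inside a 2350 kb domain also called in late G1 alone and a 2440 kb domain called in mid and late G1. Its start carried CTCF from ana/telophase on and Rad21 from early G1 on, with late-G1 folds of 17.8 and 18.7, and its end carried neither. The same outer domain held 3 of the 5 most deeply nested members. Of these, chr9:81250001-81410000 (160 kb) and chr9:81290001-81490000 (200 kb) lay in 10 other domains and had no peak of either protein at either edge at any stage. The former was called in late G1 alone and the latter in early G1 too. The third member at level 10, chr7:111890001-112160000 (270 kb), had been called in ana/telophase and mid G1.

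Corner loops were more frequent at deeply nested domains than in either other class. A domain had a corner loop if both anchors of a called loop lay within 20 kb of its edges. In late G1, 690 members had one (16.7%, interval 15.6 to 17.9%), against 11.9% (10.8 to 13.1%) of domains in 1 other, 7.10% (6.31 to 7.97%) of domains in none, and 12.1% of all late-G1 domains. The difference between members and both other classes was larger than counting error. The share was 14.2% in 2 others, 18.3% in 3, 20.6% in 4 and 19.5% in 5. Late-G1 loops come from the same libraries as the domains, so loops of other stages were also set against the late-G1 domains. With mid-G1 loops the shares were 14.5% for members, 10.6% for domains in 1 other and 6.34% for those in none, with 10.6% of all. With early-G1 loops they were 8.43%, 5.83% and 3.50%, with 6.01% of all.

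Before early G1 corner loops were almost not detectable in these lists. In pro-metaphase 1 member had one (0.0242%; all domains 0.0184%) and in ana/telophase 24 did (0.582%; all domains 0.422%). Those stages had 84 and 908 loops in all. A low count there can be no firmer than the lists allow.

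The order of the 3 classes held within size bins, with the smallest gap in the smallest bin. In the bin of 150 to 240 kb, 14.3% of members (12.4 to 16.2%), 13.7% of domains in 1 other and 9.17% of those in none had a corner loop, so members and domains in 1 other did not differ beyond counting error. In the bin of 250 to 390 kb the shares were 23.4% (21.1 to 25.8%), 19.3% (16.6 to 22.3%) and 14.1% (11.6 to 16.9%). At 400 kb and over they were 13.1%, 7.02% and 4.02%, but median size in that open bin was 540, 670 and 810 kb. In a closed bin of 400 to 590 kb, chosen after seeing the data, the medians were 470, 480 and 490 kb and the shares 16.9% (14.5 to 19.5%), 9.20% (6.99 to 11.8%) and 7.79% (5.85 to 10.1%). Members had the highest share in each bin.

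The edges of members lay near loop anchors about as often as those of other domains. Both edges lay within 20 kb of an anchor of any late-G1 loop in 27.9% of members, 27.4% of domains in 1 other and 25.9% of those in none. Among such domains a single loop joined the edges in 59.8% of members (56.9 to 62.7%), 43.6% of domains in 1 other and 27.4% of those in none. From 250 to 390 kb these shares were 65.5%, 51.0% and 39.4%. The classes therefore differed in whether one loop spanned both edges, while the share with anchors at both edges was similar.

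Where a member had a corner loop, its smallest enclosing domain mostly had none. The smallest enclosing domain also had a corner loop in 199 of the 690 cases (28.8%), and in 109 (15.8%) it was the same loop, which fell within 20 kb of both domains. Of all 4127 members, 8.34% had a smallest enclosing domain with a corner loop and 1.65% a largest enclosing domain with one. Enclosing domains are longer than the members by the rule, and these shares were not compared at matched size. The 690 members used 619 distinct loops, or 5.46% of the 11340 late-G1 loops. Among called corner loops, strength did not separate the classes. The observed/expected contact ratio had a median of 5.29 in members (quartiles 3.90 and 6.83), 5.14 in domains in 1 other and 5.22 in those in none.

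Most corner loops were first called after their domain. Among the 690, the loop was called at a later stage than the domain in 441 (63.9%), at the same stage in 160 (23.2%) and earlier in 89 (12.9%). In domains in no other, 73.1% of 268 loops came later, and in all 1316 domains with a corner loop 67.9% did. The members' loops had been called by early G1 in 44.2% of cases and by mid G1 in 77.4%, close to the 44.1% and 76.0% of all 1316 late-G1 domains with a corner loop. In the 274 members with a corner loop in early, mid and late G1, the median ratio was 5.47, 6.21 and 5.85. These medians lie within the quartiles of every one of the 3 stages, and the normalization of contact values between stages was not given in the sources used here.

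Members with a late-G1 corner loop had appeared sooner. Of the 690, 74.1% had been called by early G1, against 45.6% of the 3437 without a loop, and 11.2% against 36.4% were called in late G1 alone. Read by the stage of first call, from pro-metaphase to late G1, a late-G1 corner loop was found at 29.4%, 31.9%, 19.5%, 14.1% and 5.80% of members. Median size was 320 kb with and without a loop. Domains in no other showed the same direction: 83.2% of those with a corner loop and 48.0% of those without had been called by early G1.

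Rad21 was found at both edges of deeply nested domains about as often as elsewhere, and CTCF somewhat less often. A late-G1 CTCF peak lay within 20 kb of both edges of 38.5% of members (all domains 40.9%), a Rad21 peak of 25.3% (all 25.7%), and peaks of both proteins of 24.4% (23.1 to 25.8%; all 24.9%). Neither protein was found at either edge of 918 members (22.2%; all 20.5%). Members were thus slightly below all domains for CTCF and within counting error for Rad21. In domains in no other, CTCF lay at both edges of 43.2% (41.6 to 44.8%) and Rad21 of 26.5% (25.1 to 28.0%). The CTCF difference turned with size. Members and domains in none gave 29.7% and 26.6% at 150 to 240 kb, and 42.5% and 50.1% at 250 to 390 kb. From 400 kb up they gave 43.1% and 47.5%.

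The proteins came to these edges in different stages. CTCF of the same stage was at both edges of 11.4% of members in pro-metaphase and of 34.8%, 37.7% and 40.7% at the next 3 stages, against 13.4%, 37.7%, 40.5% and 42.9% of all domains. Rad21 was at both edges of 0 members in pro-metaphase, which allows a share of up to 0.0893%, and of 6.54%, 8.77% and 20.9% at the next 3 stages. For all domains the Rad21 shares were 0.0551%, 7.50%, 9.23% and 21.1%. Both proteins together followed Rad21, with 0%, 6.23%, 8.67% and 20.3% of members, and 0.0184%, 7.15%, 9.18% and 20.7% of all domains. The peak lists grew from 11604 to 33499 for CTCF and from 596 to 18958 for Rad21 between pro-metaphase and late G1, and the part of these totals in the shares was not tested.

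In the 1009 members with both proteins at both edges in late G1, the shares reached by ana/telophase and early G1 were highest for CTCF, then for the domain, then for Rad21. CTCF had been at both edges by pro-metaphase in 35.5%, by ana/telophase in 85.9% and by early G1 in 95.0%. The domain had been called by these stages in 6.64%, 31.6% and 65.9%. Rad21 had been at both edges by these stages in 0%, 25.3% and 41.3%, and a corner loop had been called by them in 0%, 1.29% and 21.3%. The choice of the 1009 required both proteins and the domain in late G1 but no loop. A corner loop had been called by late G1 in 45.7% of them, so its lower shares do not place it after Rad21. Taken member by member, CTCF preceded the domain in 72.7%, and Rad21 followed it in 48.0%, shared its stage in 24.3% and preceded it in 27.8%. These orders rest on thresholds of separate callers, so a feature below its threshold counts as absent. Of all 2718 late-G1 domains with both proteins at both edges, 32.5% had been called by ana/telophase and 67.2% by early G1, close to the members. The CTCF and Rad21 orders were computed for members alone, so they are not shown to be particular to members.

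Edge proteins moved with both timing and loops. A late-G1 corner loop was found at 40.8% (37.8 to 43.9%) of members with both proteins at both edges and at 16.4% of the 581 with CTCF at both edges but Rad21 at fewer. It was found at 10.0% of the 1619 with either protein but CTCF at fewer than both edges, and at 2.29% (1.42 to 3.48%) of the 918 with neither. The shares called by early G1 were 65.9%, 58.9%, 48.9% and 30.3% in the same order, and the shares called in late G1 alone 16.6%, 24.3%, 31.8% and 54.9%. Domains in no other with the same edges gave early-G1 shares of 65.5%, 60.3%, 46.7% and 29.3%. At matched edge proteins the early-G1 share of members was thus within 3 percentage points of that of domains in no other. Domains in 1 other gave 71.1%, 62.5%, 53.0% and 26.3%, further from the members. With neither protein, 58.8% of domains in no other were called in late G1 alone.

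**Figure D5:**
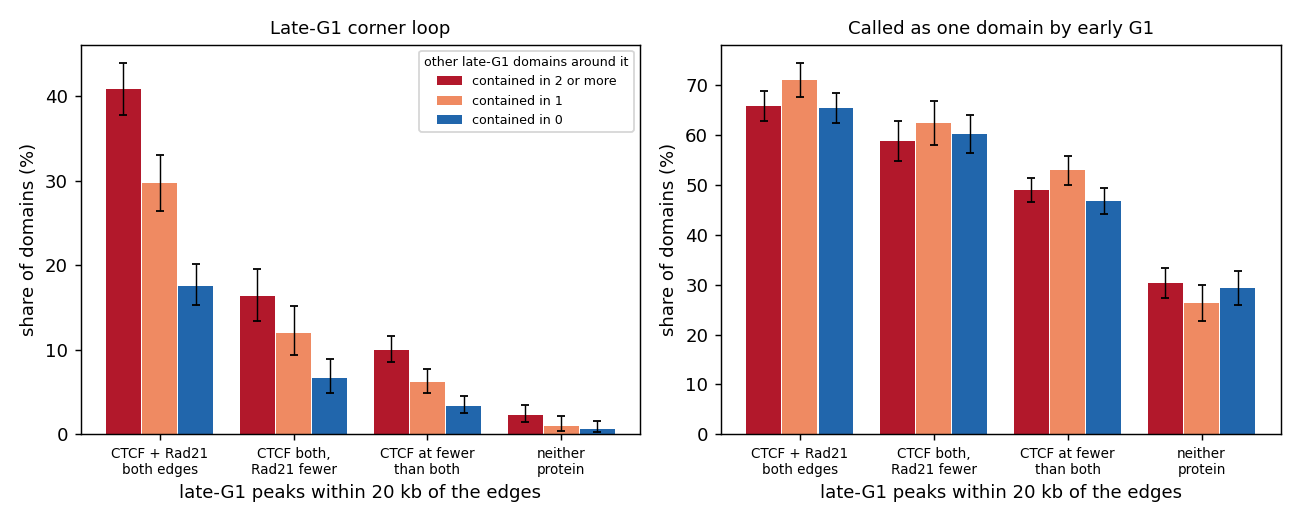
Percentage of late-G1 domains with a late-G1 corner loop (left) and called as one domain by early G1 (right), by the peaks within 20 kb of their edges and by nesting class; error bars are exact 95% intervals for counting error. With both proteins at both edges 40.8% of deeply nested domains had a corner loop and 17.6% of domains in no other, while 65.9 and 65.5% had been called by early G1.

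With the same proteins at their edges, corner loops remained more frequent in members. With both proteins at both edges the share was 40.8% for members, 29.7% for domains in 1 other and 17.6% (15.3 to 20.2%) for those in none. By size, members with both proteins had a loop in 43.9%, 49.7% and 30.5% of cases from the smallest to the largest bin. Domains in 1 other gave 46.9%, 36.8% and 17.8%, and those in none 31.2%, 30.6% and 9.24%. In the smallest bin members and domains in 1 other again did not differ beyond counting error, and in that bin the order between them turned.

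The strongest example loops illustrate edges that carried both proteins. Among the 34 members called in pro-metaphase with a late-G1 corner loop and both proteins at both edges, those with the highest loop ratio are described. The member at chr15:39670001-39980000 (310 kb) was called at all 5 stages, as was the 330 kb domain around it. Its corner loop was first called in early G1 with a ratio of 9.91, and the ratio was 10.6 in mid G1 and 12.3 in late G1 (65.4 observed against 5.30 expected). CTCF was at its end in pro-metaphase and at both edges from ana/telophase on. Rad21 was at its end from ana/telophase on and reached its start in mid G1.

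The next ones differed in when the proteins were called. At chr3:78730001-79000000 (270 kb) no CTCF peak was called at either edge in pro-metaphase, both proteins were at both edges from ana/telophase on, and the loop ratio was 7.14, 10.6 and 9.52 in early, mid and late G1. At chr2:27120001-27300000 (180 kb) CTCF was already at both edges in pro-metaphase with folds of 11.2 and 28.4, Rad21 was at its end alone (4.93), and the loop ratio was 9.40, 11.1 and 9.06. The other 2 of the first 5, chr1:135260001-135510000 and chr1:135270001-135490000, lie within 20 kb of each other at both edges and share one loop, with a ratio of 5.42 in early G1 and 8.85 in late G1. None of the 5 had a loop call before early G1, although all were called as domains in pro-metaphase.

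A corner loop without either protein was rare. Only called loops have a ratio, and the highest at each corner was kept, so weaker contacts do not enter the comparison. The 21 members with a corner loop and neither protein had a median ratio of 5.34, against 5.59 in the 412 with both proteins at both edges. The highest was at chr10:117620001-117780000 (160 kb), with ratios of 9.99 and 14.3 in mid and late G1. The second, chr13:83830001-84920000 (1090 kb), had a loop in late G1 alone with a ratio of 11.8, from 30.0 observed against 2.54 expected. The third, chr11:33050001-33540000 (490 kb), had ratios of 10.2 and 9.69 in the same stages. No peak of either protein lay within 20 kb of their edges at any stage, which does not exclude a peak at the far side of a loop anchor.

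Edges that several domains used carried both proteins more often and more often matched earlier boundaries. The members had 6326 distinct edges, of which 1706 (27.0%) were also an edge of a domain that enclosed the member. Both proteins lay within 20 kb of 55.0% (52.6 to 57.4%) of these shared edges and of 39.7% (38.3 to 41.1%) of the others, with 42.4% of all 13553 late-G1 edges. An ana/telophase boundary lay within 20 kb of 60.0% of the shared edges and 38.1% of the others. By the number of late-G1 domains that used an edge, both proteins were found at 38.5% of edges of 1 domain, 43.5% of 2, 54.7% of 3 and 61.0% of 4 or more. An early-G1 boundary was found at 59.4%, 72.2%, 84.9% and 92.1%. The strength of the peaks differed less: the median fold of the strongest CTCF peak was 23.8 at edges of 1 domain and 26.8 at edges of 4 or more, and that of Rad21 11.3 and 12.2.

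The most used edge of a member, at chromosome 16 position 15550000, bounded 9 late-G1 domains and had a CTCF peak of 15.9-fold but no Rad21 peak. Of the 4 edges with 8 domains, chromosome 12 position 41560000 and chromosome 13 position 34040000 had both proteins and an ana/telophase boundary. Chromosome 15 position 32700000 had both proteins without that boundary, and chromosome 7 position 109630000 had the boundary and CTCF without Rad21. All 5 of these edges thus carried CTCF, and 3 of them Rad21.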

How the data were processed

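The titles of the Hi-C and ChIP-seq samples gave assay, target and stage. Per the submitters' processing notes, Bowtie2 and HiC-Pro are named for Hi-C, and MACS2 2.1.0, Bowtie 0.12.7, bedtools 2.27.1 and SAMtools 1.7 for ChIP-seq, with build mm9. The domain, loop and stripe callers were not given in the sources used here. Of the 75 samples, Capture-C, RNA polymerase II and input samples were not analysed here.

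The authors deposited 1 domain list per stage, with edges in bins of 10 kb. The deposited loop lists give an observed and an expected contact signal and a p-value per loop; their normalization was not given in the sources used here, and 1 loop with an expected value near 0 was given no ratio. The deposited stripe lists give a strength, a ratio of observed to expected. The deposited peak lists pool replicates after downsampling, per the peak names in them, and give the authors' fold enrichment (a ratio) and −log10 q. The lists hold no read totals, so the depth of each sample is unknown.

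A late-G1 domain was a member if at least 2 other late-G1 domains held it whole. Its first call was the earliest stage with a domain whose 2 edges lay within 20 kb of its own. A corner loop had both anchors within 20 kb of the edges, and the loop with the highest ratio was kept. A protein was at an edge if a peak lay within 20 kb. Intervals are exact Clopper-Pearson at 95%. Computing used Python 3.11.15, NumPy 2.4.6 and SciPy 1.17.1, plots Matplotlib 3.10.9; the interval functions were checked on 1499 simulated domains, partly against bedtools 2.31.1, and passed 7 of 7 tests.

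The members, lists and rules were chosen with earlier results of these data known. Regions named were the 5 with the highest level, the 3 outermost domains with most members and the largest member. To these were added the first 5, 5, 5 and 3 by size or loop ratio in 4 stated classes, described above in unequal detail. The 5 edges used by most domains were chosen after their values were seen. Alternatives changed the edge tolerance, the nesting rule, the peak distance and threshold, the loop rule, size and chromosomes.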

Additional observations from a re-analysis of the deposited data

How the results depend on the processing

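No paired analysis was possible because the lists pool the replicates of each stage, and for the same reason no replicate could be left out. Of 53 recomputed values of the 6 main quantities, 33 lay outside the 95% interval or the 1.5-fold bound of the reported value; of 110 other values, 50 did. The causes were not tested. No domain was under 150 kb, so that bin was not run. The share called by early G1 (50.3%) was 36.4% with a tolerance of 10 kb, 63.2% with 40 kb, 48.5% with the smaller of 20 kb and 10% of size, 47.3% strictly inside without shared edges, 41.5% and 58.3% in the bins of 150 to 240 and 250 to 390 kb, and 35.1% from unbroken runs. The share earlier than the smallest enclosing domain (29.9%) was 27.9% with 40 kb, 32.1% strictly inside, 28.5% in 3 or more, 33.8% without near-duplicates and 35.0% with best assignment. With 3 or more enclosing domains 2129 members were left. The corner loop share (16.7%) was 12.2% and 23.6% with anchors within 10 and 40 kb, 18.4% strictly inside, 19.1% in 3 or more, 20.9% with 1 domain per outermost domain, and 14.3%, 23.4% and 13.1% by size bin. After seeing the data, 14.5% was found with mid-G1 loops and 15.3% without chromosome 1. Under each setting of the anchor distance, loop p-value, nesting rule and chromosome 1 that was run for all 3 classes, members exceeded domains in 1 other and those in none. The share with both proteins at both edges (24.4%) was 9.93% and 43.7% with peaks within 10 and 40 kb, 16.6% with asynchronous peaks, 26.4% with 1 domain per outermost domain, and 18.8%, 28.4% and 26.2% by size bin. Its mid-G1 value (20.3%) was 7.66% and 38.6% with peaks within 10 and 40 kb. The asynchronous list replaced the peaks of every stage, so its 16.6% is the same value for each stage. The counts of recomputed values above include these repeats.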

Other observations

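Late-G1 stripes, lines of contact that run from one anchor across a domain, were found at an edge of 663 deeply nested domains and pointed into them (16.1%, interval 15.0 to 17.2%). The share was 13.3% in domains in 1 other, 11.0% in those in none and 13.5% of all late-G1 domains. In 583 of the 663 (87.9%) a stripe ran more than 20 kb past the far edge of the domain, against 53.4% of 414 domains in none. Smaller domains are more easily passed, and this share was not compared at matched size.

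Chromosomes differed in their corner loops. On chromosome 1, 104 of 308 deeply nested domains had a late-G1 corner loop (33.8%), against 21.1% of all its domains, and 38.0% had both proteins at both edges. On chromosome X, 9 of 191 had one (4.71%), against 3.10% of all its domains. Chromosome 1 had 742 late-G1 loops per 100 Mb covered by domains and chromosome X 162. On chromosome 18 the members lay below the chromosome's domains as a whole, with 8.18% against 9.47%. The share of members called by early G1 ran from 40.6% on chromosome 14 to 62.1% on chromosome 13. Members made up between 31.3% of the domains on chromosome 11 and 44.4% on chromosome 13.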
